A study of Mus musculus with 7 samples.

Results

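Chemokines, interleukins, members of the tumour necrosis factor (TNF) family and the receptors of all of these were examined in Lgr5-positive cells of the mouse hair follicle. The members were the genes of the deposited count table whose symbols begin with Ccl, Cxcl, Ccr, Cxcr, Ackr, Il, Tnfsf or Tnfrsf followed by their family number or, for the last 2, by any ending, without Cxcl10 and Il6st. They numbered 101 of 15415 genes: 17 chemokine ligands, 12 chemokine receptors, 19 interleukins with their antagonists and binding proteins, 29 interleukin receptor subunits, 8 TNF family ligands and 16 members of the TNF receptor family. The groups were 3 libraries from mice in Telogen, when follicles rest, aged 45 days, and 4 libraries from mice in Anagen, when follicles grow, aged 35 days. All 7 samples came from the strain labelled C57Bl6 x B10D2, from back epidermis freed with trypsin, sorted as live, CD45-negative cells on a GFP signal that the series' design text equates with Lgr5. No agent was given to either group. The labels name neither the reporter allele nor the number of mice behind each library, so every p-value refers to the spread among libraries, part of which may be technical. Phase cannot be told apart from age, nor from depth, since Telogen libraries held 5097457 to 6453337 counts, and Anagen libraries 13719893 to 17042690 counts.

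Chemokines are small secreted proteins that attract cells through G protein-coupled receptors, and atypical chemokine receptors bind them without that signal and clear them. Interleukin receptors are mostly built of a ligand-binding subunit and a shared partner, and soluble antagonists and decoy receptors limit them. TNF family ligands act on receptors that carry death domains or recruit TRAF adaptors, and some of these receptors are decoys too. In skin, keratinocytes both make and receive many of these signals, which link the epithelium to Langerhans cells, T cells and sensory nerves.

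Genes of the interleukin-1 and interleukin-36 receptors and of the interleukin-20 receptor were lower in Telogen, as was the chemokine Cxcl12. The skin chemokines Ccl27a and Cxcl14, the scavenger receptor Ackr4, the interleukin-31 receptor Il31ra and the decoy receptor Tnfrsf11b were higher in Telogen. Enough reads for a test were found for 50 of 101 members. Of these, 15 were higher in Telogen, 15 were lower and 20 did not pass the threshold (quasi-likelihood test of edgeR, p below 0.05 after Benjamini-Hochberg adjustment over all genes tested). That is 60% of tested members, against 49.5% of all 12266 genes tested. By direction it was 30% higher, against 23.7% of all genes, and 30% lower, against 25.8%. The median log2 fold change, Telogen minus Anagen, was 0.06 over the tested members and -0.09 over all genes tested. The filter let 2 members in through Telogen libraries alone, Il31ra and Il34, both called higher. It let 3 in through Anagen libraries alone, of which 2, Il1r2 and Tnfsf15, were called lower and Il18bp did not pass. Each entered only through the group where its level was higher, so these shares alone support nothing. All Telogen libraries lay above all Anagen libraries for 14 tested members (24.8% of all genes tested) and below them for 15 (29.8% of all genes tested). Without Telogen 3, 13 members were higher and 16 lower, and without Anagen 1 and Anagen 2, 16 were higher and 11 lower. Counts over all genes in these fits are not given here, so these shifts cannot be ascribed to the members. Levels below are CPM, counts scaled to the TMM-adjusted library total, in the order of the library numbers, and log2 fold changes are Telogen minus Anagen ± SE, with adjusted p from the same edgeR test.

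**Figure D1:**
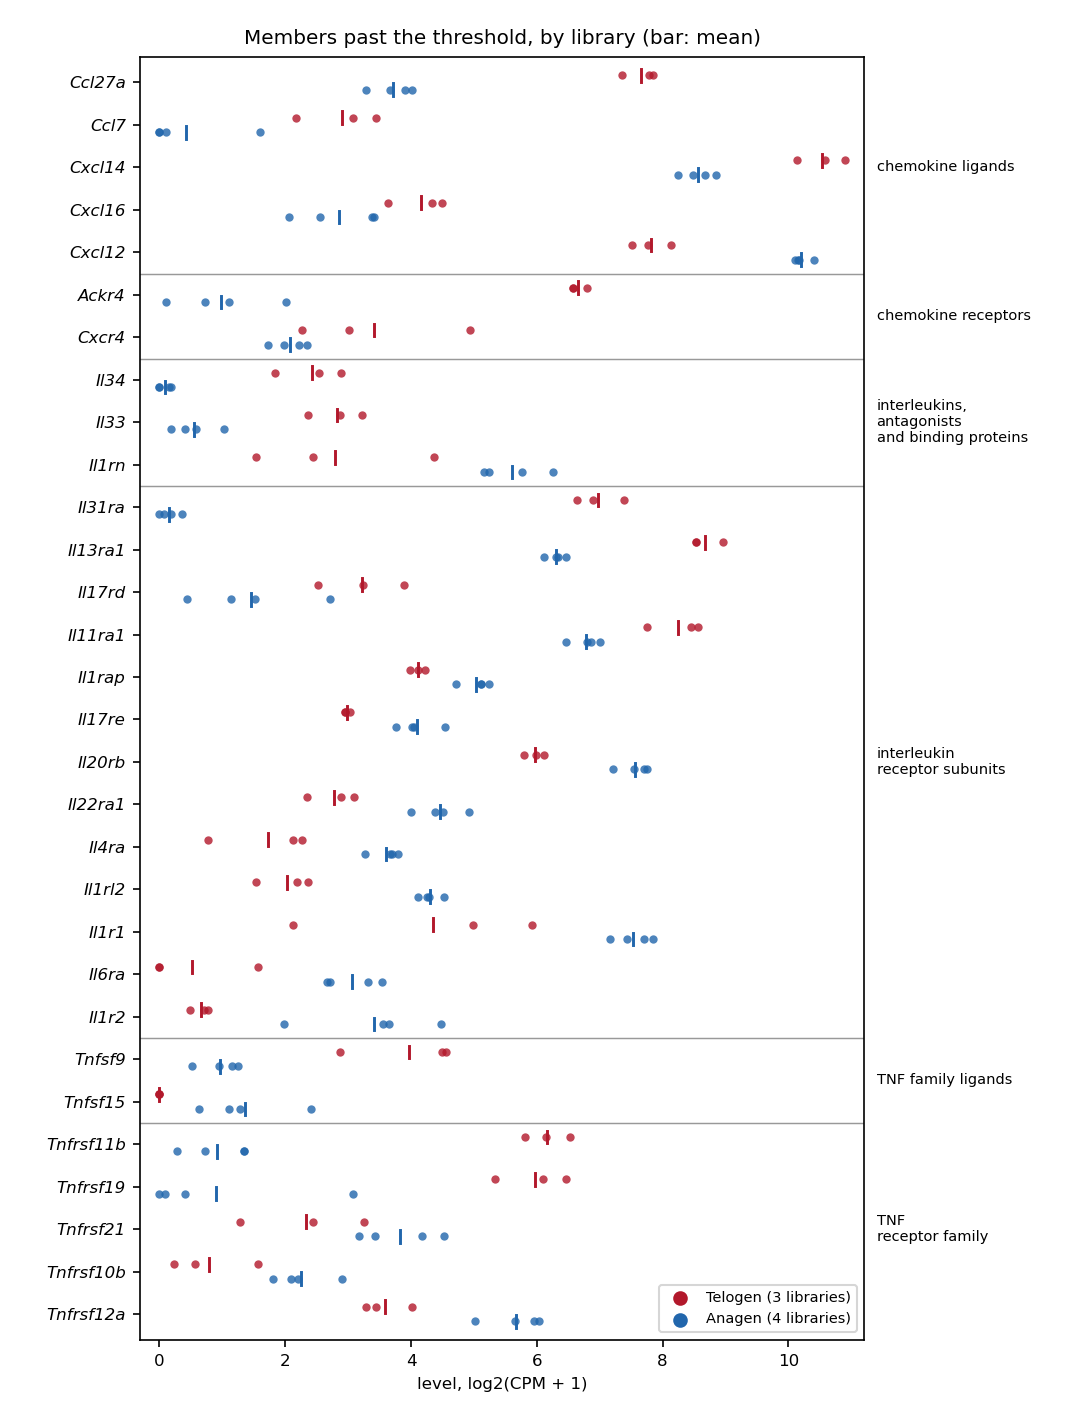
Level of each of the 30 members past the threshold in every library, as log2(CPM + 1) on the horizontal axis; red points are the 3 Telogen libraries, blue points the 4 Anagen libraries, and short bars the mean of the log values. The groups do not overlap except in Cxcr4, Il17rd and Tnfrsf21, and Il31ra lies near 0 in all 4 Anagen libraries.

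The sorted cells carried the markers of hair follicle keratinocytes, but these markers and those of other cells differed between the phases. Lgr5 had 2335 to 2961 counts per Telogen library and 387 to 1492 per Anagen library. Of 8 keratinocyte markers tested, 5 were higher in Telogen and 3 lower. Mean CPM, Telogen against Anagen, came to 461 against 56.2 for Lgr5, 511 against 12.7 for Cd34 and 8636 against 171 for Krt15. Itga6 (848 against 189) and Lhx2 (1877 against 838) were also higher. Lower were Krt14 (831 against 5693), Krt5 (9115 against 17000) and Sox9 (874 against 2185). Of 21 leukocyte markers 16 were listed, summing to 6.94 to 53.7 CPM in Telogen and 12.5 to 16 CPM in Anagen; 1 of 3 tested was higher in Telogen. Telogen 3 held the highest sum, with 85 counts of Cd3g, 67 of Cd53 and 12 of Ptprc, which encodes CD45. Ptprc had 0 counts in Telogen 1, Telogen 2 and 3 of the Anagen libraries. Cd3d, Cd3e, Cd3g, Cd53, Tyrobp and Cd207 had 0 in all 4 Anagen libraries. Other leukocyte markers went the other way. H2-Ab1 averaged 2.03 CPM in Telogen and 6.37 CPM in Anagen, and Cd68 2.35 and 6.21 CPM. For both, all Telogen libraries lay below all Anagen libraries, but neither passed the threshold. Cpa3 had 0 counts in Telogen and 18 in Anagen. All 8 fibroblast markers were listed, summing to 33.7 to 46.0 CPM in Telogen and 81.7 to 1519.6 CPM in Anagen, with Anagen 1 and Anagen 2 the highest; 6 of 7 tested were lower in Telogen, and Dcn, Lum and Mfap5 were at 0 there. Summed levels of 9 immediate early and heat shock genes were 3954 to 14688 CPM in Telogen, with Telogen 3 the highest. In Anagen they were 2483 to 5386 CPM. The 5 called higher in Telogen included the heat shock gene Hspa1b. For 5 listed markers of differentiated epidermis the sums were 719 to 1273 CPM in Telogen and 26.3 to 39.7 CPM in Anagen (5 higher). For 4 listed melanocyte markers they were 166 to 319 CPM and 16.6 to 24.7 CPM (1 higher, Mitf, and 1 lower, Pmel). Mitf alone made up most of the Telogen sums, with 158, 167 and 307 CPM there. Smooth muscle markers (4 listed) summed to 1.44 to 3.37 CPM in Telogen and 15.2 to 35.8 CPM in Anagen (2 lower), and endothelial markers (5 listed) to 0 to 2.49 CPM and 2.16 to 10.6 CPM (1 lower). Unless stated beside a member, the part of these cells in its difference was not tested. In bulk libraries, fewer cells of a type and less RNA per cell cannot be told apart.

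Among the chemokine ligands, 4 of 8 tested were higher in Telogen and 1 was lower, 50% and 12.5%, against 23.7% and 25.8% of all genes tested. Cxcl14, a chemokine that epidermis makes constitutively, was the most abundant member per gene length in Telogen, with a mean of 795 RPKM (the authors' read level scaled to gene length and library total), against 214 RPKM in Anagen. Its level was 1905, 1126 and 1527 CPM in Telogen and 356, 408, 458 and 301 CPM in Anagen. All Telogen libraries lay above all Anagen libraries, with a log2 fold change of 2.0 ± 0.22 (adjusted p = 4.04e-05 by edgeR). Cxcl12, the ligand of Cxcr4 and Ackr3, went the other way. It had 183, 217 and 280.4 CPM in Telogen, against 1361, 1094, 1138 and 1145 CPM in Anagen (NM_001012477, mm10 chromosome 6, 117168535 to 117181368). The groups were far apart and tight, with a log2 fold change of -2.39 ± 0.20 (adjusted p = 7.68e-06 by edgeR). Fibroblasts also make Cxcl12, and their markers summed to 1079, 1519.6, 81.7 and 104 CPM in the 4 Anagen libraries in that order; their part in the Cxcl12 difference was not tested. Per gene length Cxcl12 and Cxcl14 led the members in Anagen, both at a mean of 214 RPKM and so not apart beyond their spread, followed by Il20rb at 78.1 RPKM. In Telogen Cxcl14 was followed by Ccl27a at 219.8, Il11ra1 at 161, Il13ra1 at 106, Ackr4 at 45.2 and Cxcl12 at 38.6 RPKM.

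Ccl27a, a chemokine of keratinocytes that attracts skin-homing T cells through Ccr10, had 228, 218 and 162 CPM in Telogen and 14, 15.2, 11.7 and 8.72 CPM in Anagen. It was 16.3-fold higher in Telogen (log2 fold change 4.03 ± 0.26, adjusted p = 1.25e-06 by edgeR), and every Telogen library lay above all Anagen libraries. Its receptor Ccr10 had 0 counts in Telogen and 12 in Anagen, too few for a test. Ccl27a lies on chromosome 4 (41772895 to 41774101), 3421 bases beyond the interleukin-11 receptor gene Il11ra1, which was also higher; both genes have near-identical copies in the mouse genome, so their counts are uncertain. Cxcl16, a membrane-bound chemokine for Cxcr6, had 19.2, 21.4 and 11.5 CPM in Telogen and 9.44, 3.20, 4.89 and 9.65 CPM in Anagen. The gap between the groups was small (1.36 ± 0.44, adjusted p = 0.0254), and edgeR's adjusted p was 0.0663, 0.0820, 0.0539 and 0.0658 without Telogen 1, Telogen 2, Anagen 2 and Anagen 3. Cxcr6 itself had 2 counts in all.

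The monocyte chemoattractants Ccl7 and Ccl2, which act through Ccr2, lie beside each other on chromosome 11, 8259 bases apart. Ccl7 had 42, 22 and 50 counts in Telogen and 1, 37, 0 and 0 in Anagen, so that 1 Anagen library, Anagen 2, held nearly all of its Anagen reads. It was called higher in Telogen (log2 fold change 3.64 ± 1.28, adjusted p = 0.0358 by edgeR). That call was lost without Telogen 1, Telogen 3, Anagen 1, Anagen 3 or Anagen 4 (adjusted p = 0.0585 to 0.0977 by edgeR), while without Anagen 2 the pooled ratio was 292 (95% exact binomial interval 51.4 to 11650.0, counting error only). Ccl2 had 23, 88 and 10 counts in Telogen and 10, 81, 1 and 6 in Anagen, and did not pass (adjusted p = 0.110). Their receptor Ccr2 had 28 and 38 counts in Anagen 1 and Anagen 2 and 0 in the other 5 libraries. Anagen 2, which also held the most fibroblast marker reads and the largest total, was the sole source of the reads of Ccl11, Ccr1, Cxcl2, Cxcl5, Cxcl13 and Il1rl1, with 2 to 10 counts each. Cxcl9, a target of interferon-gamma, had 4.1, 2.56 and 0.594 CPM in Telogen and 1.87, 0, 0.193 and 1.22 CPM in Anagen, and Ccl28, a mucosal chemokine, had 14 counts in Telogen and 49 in Anagen; neither passed. The ligands too low to be tested were Ccl1, Ccl6, Ccl11, Ccl20, Ccl25, Cxcl1, Cxcl2, Cxcl5 and Cxcl13, with 2 to 47 counts over the 7 libraries.

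**Figure D2:**
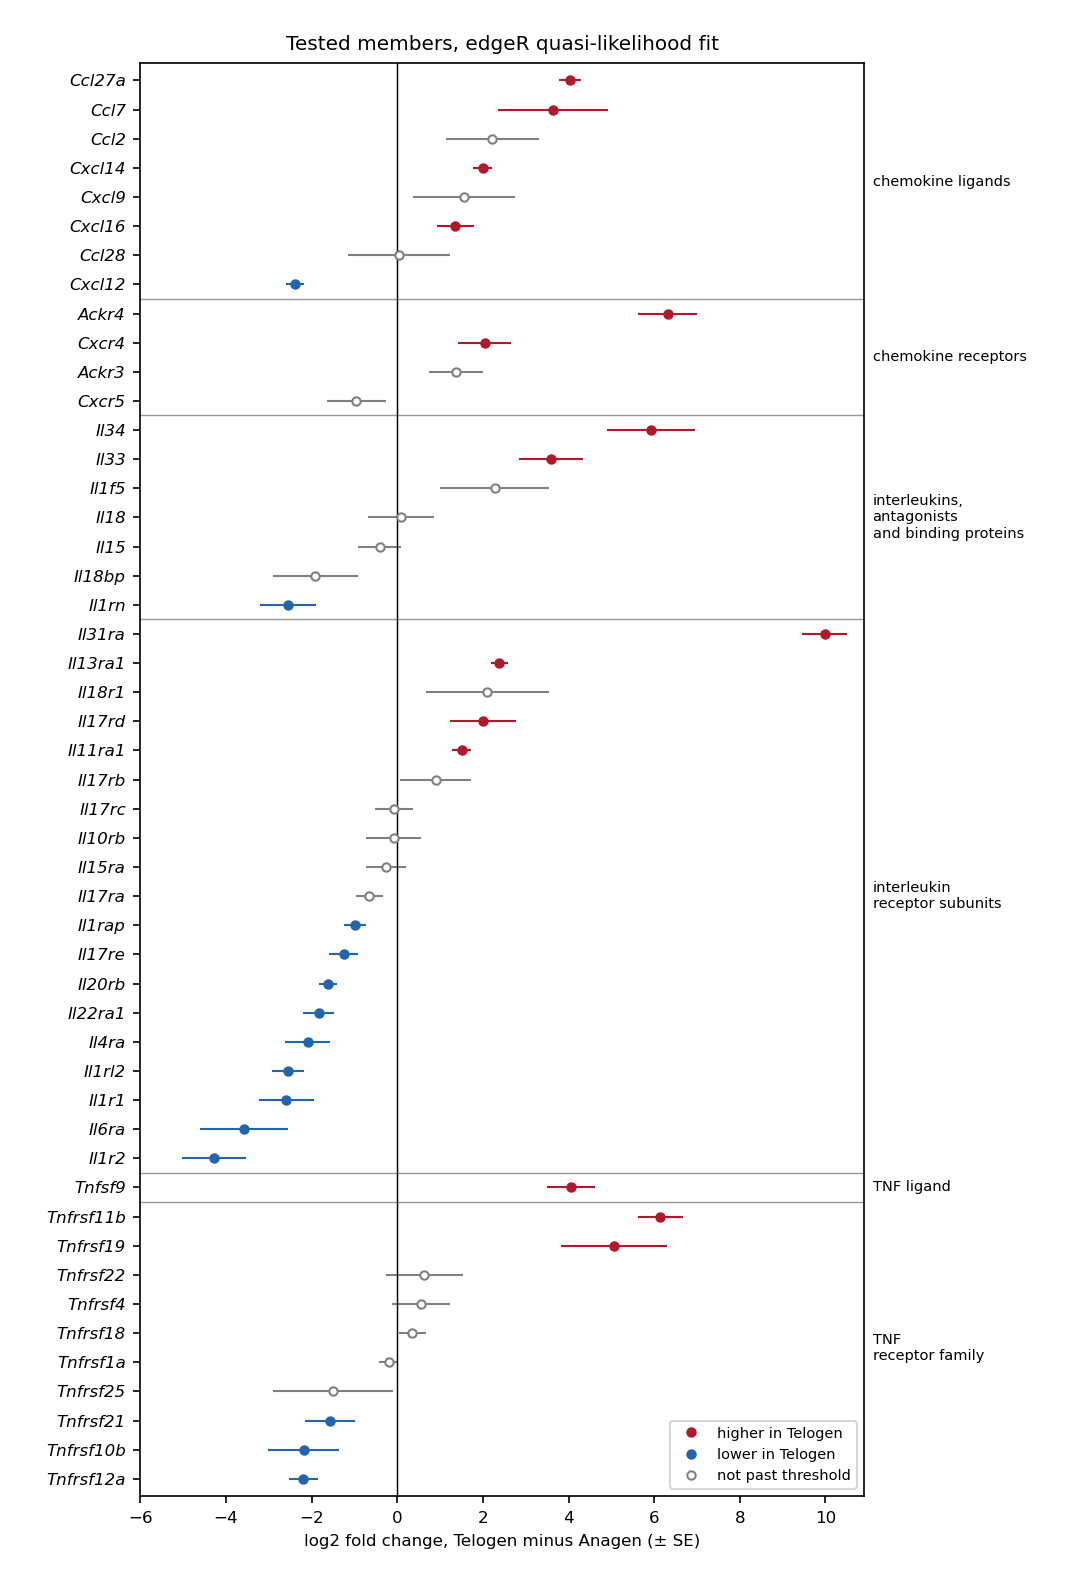
Log2 fold change, Telogen minus Anagen, with its SE on the horizontal axis for 49 of the 50 tested members, grouped by role; filled red points were higher and filled blue points lower at an adjusted p below 0.05, and open grey points did not pass. Tnfsf15, with 0 counts in Telogen, has no finite fold and is left out; the interleukin receptor subunits spread from 9.98 for Il31ra to -4.28 for Il1r2.

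Of 12 chemokine receptors 4 were tested and 2 were higher in Telogen, 50%, against 23.7% of all genes tested. Ackr4, the atypical receptor that clears CCL19, CCL21 and CCL25, had 110.2, 94.0 and 94.5 CPM in Telogen. In Anagen it had 0.648, 1.16, 3.03 and 0.0715 CPM, which is 9, 21, 47 and 1 counts, so that every Anagen library lay far below all Telogen libraries. Its log2 fold change was 6.31 ± 0.68 (79.5-fold; adjusted p = 3.71e-05 by edgeR) and 7.24 without Anagen 3, which held the most Anagen reads. Of its ligands, Ccl25 had 3 counts in Telogen and 28 in Anagen. The 300 bases around the start of Ackr4, the tested chemokine or chemokine receptor gene with the largest fold change, are given from RefSeq (GRCm38.p6, the assembly of mm10; chr9:104126594-104126893, minus strand, 250 bases before to 50 after the start, which coincided with the start in the deposited table). Capitals mark the letters of a TATA box (TATAAA on either strand), here 185 bases before the start. At any position in the window, 13.6% of 32817 promoters of this length hold these letters.
Ackr4: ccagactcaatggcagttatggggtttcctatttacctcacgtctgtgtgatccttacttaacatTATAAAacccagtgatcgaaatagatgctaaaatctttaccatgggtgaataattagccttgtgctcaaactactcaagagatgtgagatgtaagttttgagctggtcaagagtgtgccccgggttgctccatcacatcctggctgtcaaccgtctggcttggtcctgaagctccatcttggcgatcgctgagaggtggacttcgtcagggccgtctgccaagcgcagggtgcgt

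Cxcr4, the signalling receptor of Cxcl12, had 7.12, 3.84 and 29.5 CPM in Telogen and 4.11, 2.32, 3.67 and 2.93 CPM in Anagen. The groups overlapped, and the highest value came from Telogen 3, the library with the most leukocyte marker reads. Its log2 fold change of 2.04 ± 0.62 (adjusted p = 0.0186 by edgeR) was 0.74 without that library (adjusted p = 0.293). Ackr3, the scavenger of Cxcl12, had 5.34, 7.83 and 8.32 CPM in Telogen and 4.75, 4.13, 1.42 and 0.786 CPM in Anagen; the groups did not overlap, but the test did not pass (1.36 ± 0.63, adjusted p = 0.0961 by edgeR). It passed without Anagen 1 and Anagen 2 together (2.68, adjusted p = 0.0209 by edgeR). Cxcr5, known from B cells, had 22 counts in Telogen and 158 in Anagen and did not pass. Of the untested receptors, Ccr4, a receptor of skin-homing T cells, had 40, 0 and 26 counts in Telogen and 0 in every Anagen library. That is at least 80.0-fold higher in Telogen against a floor of 3 counts over the Anagen libraries (at least 47.2-fold without Telogen 1 and at least 127-fold without Telogen 2). Cxcr2, a neutrophil receptor, had 25 and 15 counts in Anagen 1 and Anagen 2 and 0 elsewhere. Ackr1, Ccr1, Ccr9, Ccr10 and Cxcr6 had 2 to 23 counts in all.

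**Figure D3:**
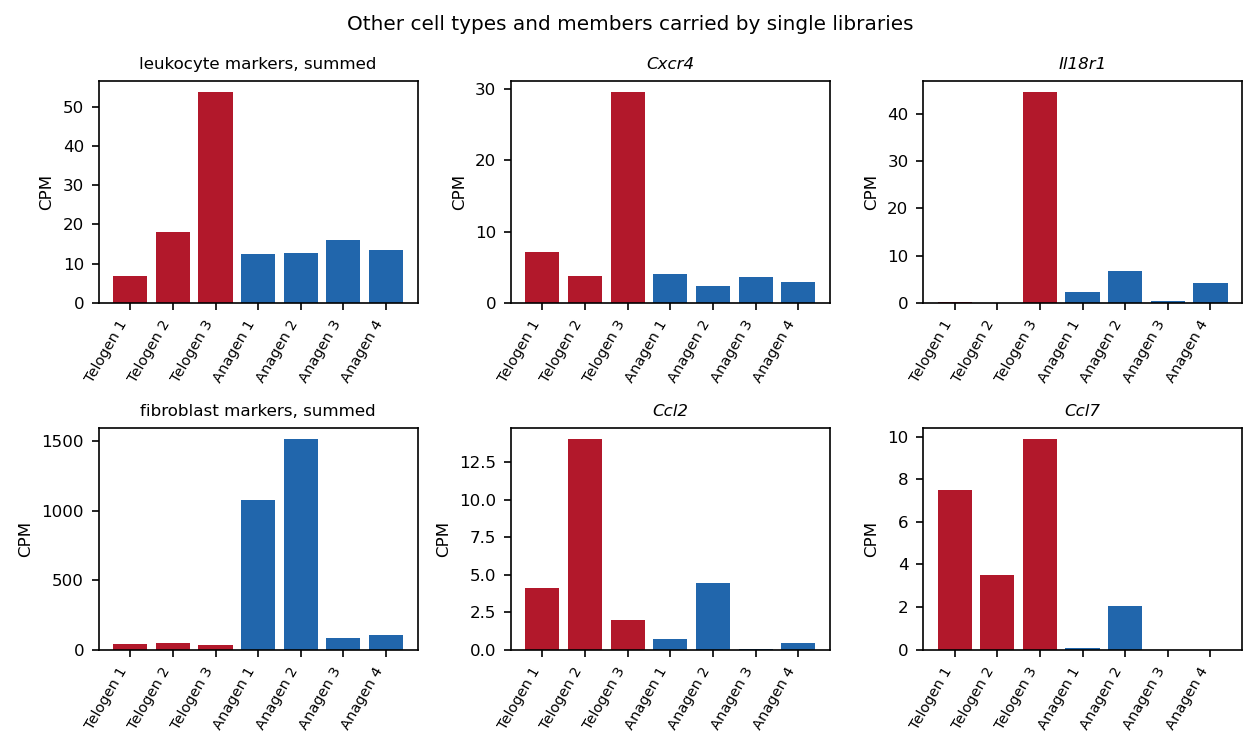
CPM in each library for the summed leukocyte markers, Cxcr4 and Il18r1 (upper row) and the summed fibroblast markers, Ccl2 and Ccl7 (lower row), with Telogen in red and Anagen in blue. Telogen 3 is the highest library in all 3 upper panels, and Anagen 2 is the highest Anagen library in all 3 lower panels.

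Among the interleukins, their antagonists and binding proteins, 7 of 19 were tested, and 2 were higher and 1 lower in Telogen, 28.6% and 14.3%, against 23.7% and 25.8% of all genes tested. Il34, the keratinocyte ligand of the receptor Csf1r that maintains Langerhans cells, had 36, 30 and 13 counts in Telogen and 0, 2, 0 and 2 in Anagen. No Anagen library came near the Telogen range, and the log2 fold change was 5.93 ± 1.03 (adjusted p = 0.000822 by edgeR); the pooled ratio was 101 without Anagen 2 and 111 without Anagen 4, with 2 Anagen counts left in each. Il34 entered the test through Telogen libraries alone. Csf1r had 0 counts in Telogen and 16 in Anagen. Il33, a nuclear alarmin of epithelial cells, had 8.37, 4.16 and 6.34 CPM in Telogen and 0.504, 1.05, 0.322 and 0.143 CPM in Anagen (3.59 ± 0.74, adjusted p = 0.00230 by edgeR), and 4.24 without Anagen 2. Il1rl1, which encodes its receptor, had 2 counts in all. Il1rn, the secreted antagonist of the interleukin-1 receptor, had 4.45, 1.92 and 19.6 CPM in Telogen and 36.6, 34.8, 53.3 and 75.2 CPM in Anagen. Telogen 3 was the highest Telogen library but lay below all Anagen libraries; the log2 fold change was -2.54 ± 0.65 (adjusted p = 0.00815 by edgeR) and -3.99 without Telogen 3.

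Il15, which sustains natural killer and memory T cells, and its receptor subunit Il15ra were both detected in every library and did not pass. Il15 had 3.38, 6.23 and 11.9 CPM in Telogen and 5.91, 8.54, 15.5 and 8.01 CPM in Anagen, and Il15ra 12.1, 4.32 and 22.6 CPM in Telogen and 17.9, 14.6, 15.5 and 14.2 CPM in Anagen. Their log2 fold changes were -0.41 ± 0.50 and -0.26 ± 0.46. Il18, an inflammasome product, its inhibitor Il18bp and Il1f5, the interleukin-36 receptor antagonist, did not pass either. Il1f9, an interleukin-36 agonist, had 15, 0 and 27 counts in Telogen and 0 in Anagen, at least 50.9-fold higher (at least 25.9-fold without Telogen 3 and 80.8-fold without Telogen 2), and entered no test. Il1a, the epithelial interleukin-1 alpha, had 0 counts in Telogen and 12 in Anagen. Il24 had 35 of its 39 counts in Anagen 2, and all 15 counts of Il19 came from Anagen 3. Il5, Il7, Il11, Il16, Il17b, Il17d, Il25 and Il1f6 had 5 to 41 counts in all.

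The interleukin receptor subunits formed the largest class. Of 29, 19 were tested, and 4 were higher and 9 lower in Telogen. That is 21.1% and 47.4%, against 23.7% and 25.8% of all genes tested. Of the interleukin-1 family, Il1r1, Il1rap, Il1r2 and Il1rl2 were each lower in Telogen, Il18r1 did not pass and Il1rl1 was too low to be tested. Il1r1, the signalling receptor for interleukin-1, had 3.38, 30.8 and 59.6 CPM in Telogen and 142, 172, 229.6 and 207 CPM in Anagen. Telogen libraries differed widely among themselves, yet all lay below all Anagen libraries (-2.59 ± 0.65, adjusted p = 0.00748 by edgeR; -3.45 without Telogen 3). Its accessory partner Il1rap had 17.6, 14.9 and 16.2 CPM in Telogen and 25.2, 33.5, 33.6 and 36.6 CPM in Anagen (-0.99 ± 0.26, adjusted p = 0.00958 by edgeR). Il1rap lost its call with the replicate number as a block (adjusted p = 0.0523 by edgeR). Il1r2, a decoy that binds interleukin-1 without signalling, had 4, 4 and 2 counts in Telogen and 41, 194, 332 and 162 in Anagen. It was 19.5-fold lower in Telogen (-4.28 ± 0.74, adjusted p = 0.000835 by edgeR) and entered the test through Anagen libraries alone. Il1rl2, the receptor for interleukin-36, had 3.56, 1.92 and 4.16 CPM in Telogen and 16.4, 18.1, 22 and 18.5 CPM in Anagen (-2.55 ± 0.38, adjusted p = 0.000307 by edgeR).

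Il1r2, Il1r1 and Il1rl2 are neighbours on chromosome 1, at 40084768 to 40125226, 40266586 to 40316177 and 40324627 to 40365471 of mm10, with 141359 and 8449 bases between them. The next member of the row, Il1rl1, had 2 counts in all, and Il18r1, which follows it, did not pass. Il18r1, a subunit of the interleukin-18 receptor found on T cells and natural killer cells, had 1, 0 and 225 counts in Telogen and 32, 122, 7 and 59 in Anagen. Nearly all of its Telogen reads came from Telogen 3, which also held all 28 counts of Il7r and all 12 counts of Tnfsf11. Without Telogen 3 the log2 fold change of Il18r1 was -5.18 (adjusted p = 0.0229 by edgeR), against 2.11 with all libraries (adjusted p = 0.247). The promoters of the 3 neighbours that were lower together follow, from RefSeq (GRCm38.p6, plus strand): Il1r2 at chr1:40085843-40086142, Il1r1 at chr1:40266336-40266635 and Il1rl2 at chr1:40324339-40324638. Their starts lay 1325, 0 and 38 bases from the start in the deposited table. Capitals mark the TATAAA letters on either strand, found in Il1rl2 at 166 bases before the start.
Il1r2: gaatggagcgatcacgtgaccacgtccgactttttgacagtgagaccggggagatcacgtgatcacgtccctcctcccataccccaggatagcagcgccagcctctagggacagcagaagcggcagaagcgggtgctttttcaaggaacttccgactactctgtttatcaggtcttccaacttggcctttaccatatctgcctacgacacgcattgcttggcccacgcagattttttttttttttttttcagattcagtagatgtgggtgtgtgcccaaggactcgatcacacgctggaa
Il1r1: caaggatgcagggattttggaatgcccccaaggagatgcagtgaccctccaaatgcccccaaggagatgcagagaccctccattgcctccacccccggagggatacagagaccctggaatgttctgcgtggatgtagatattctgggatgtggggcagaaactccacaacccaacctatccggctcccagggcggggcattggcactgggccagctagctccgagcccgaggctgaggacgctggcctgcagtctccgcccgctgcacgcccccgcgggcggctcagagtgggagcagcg
Il1rl2: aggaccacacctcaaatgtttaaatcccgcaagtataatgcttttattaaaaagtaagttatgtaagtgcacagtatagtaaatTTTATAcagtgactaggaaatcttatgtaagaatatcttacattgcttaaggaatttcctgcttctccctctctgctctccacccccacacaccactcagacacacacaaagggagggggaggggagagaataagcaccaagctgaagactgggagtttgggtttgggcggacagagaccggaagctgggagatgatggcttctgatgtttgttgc

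None of these 3 windows held an AP-1 site (TGANTCA) on either strand, a motif that 7.81% of the 32817 promoters hold. For NF-kappaB a single 10-letter pattern was searched, narrower than the range of sites, so variants with other letters were not counted. None of the 3 windows matched that pattern on either strand, against 1.20% of the 32817 promoters, which does not show that NF-kappaB sites are absent. RefSeq promoters were matched for 78 of 101 members and for 24 of the 30 past the threshold. An AP-1 site was found in 0 of 10 members that were higher in Telogen and in 1 of 14 that were lower (Il22ra1). The NF-kappaB pattern searched was found in 0 of 10 and 0 of 14. The TATAAA letters were found at any position in 3 of 10 (Ackr4, Cxcr4 and Il33) and 2 of 14 (Il1rl2 and Il1rn), against 13.6% of all promoters. They lay 32 and 30 bases before the start in Cxcr4 and 29 before it in Il33. In Ackr4 and Il1rl2 they lay 185 and 166 bases before the start, and in Il1rn 14 bases after it. These are matches of letters in a short window.

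Il31ra, which with Osmr forms the receptor for the itch cytokine interleukin-31, had the largest difference among the members called higher. It had 118, 98.5 and 165 CPM in Telogen and 0.288, 0.0551, 0 and 0.143 CPM in Anagen (NM_139299, chromosome 13, 112522807 to 112580662). In Anagen this was 4, 1, 0 and 2 counts, so the gene was close to undetected there. It entered the test through Telogen libraries alone. The log2 fold change was 9.98 ± 0.53 (adjusted p = 4.75e-07 by edgeR), and without Anagen 1 the pooled ratio was 1986 (95% exact binomial interval 679 to 9637). Osmr, named here as its partner after its values were seen, had 141, 115 and 100.5 CPM in Telogen and 48.4, 49.4, 41.7 and 26.6 CPM in Anagen (1.52 ± 0.26, adjusted p = 0.000693 by edgeR). Per gene length Il31ra and Osmr stood at 33.3 and 23.4 RPKM in Telogen and at 0.0334 and 8.82 RPKM in Anagen, so that in Anagen the partner was present almost without Il31ra. The promoter of Il31ra (GRCm38.p6, chr13:112580613-112580912, minus strand) has its start at that of the deposited table and held no match to the 3 patterns searched.
Il31ra: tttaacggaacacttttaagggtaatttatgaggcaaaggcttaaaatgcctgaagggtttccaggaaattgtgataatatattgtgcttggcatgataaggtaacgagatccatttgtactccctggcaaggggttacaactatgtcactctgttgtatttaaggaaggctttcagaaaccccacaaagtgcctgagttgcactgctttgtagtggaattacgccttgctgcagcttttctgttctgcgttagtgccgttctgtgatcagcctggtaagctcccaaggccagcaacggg

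Il13ra1 and Il4ra, which together form the receptor for interleukin-13, changed in opposite directions. Il13ra1 had 368, 368 and 494 CPM in Telogen and 87.1, 79.9, 68.3 and 78.4 CPM in Anagen (2.39 ± 0.19, adjusted p = 4.68e-06 by edgeR). Il4ra had 0.712, 3.84 and 3.37 CPM in Telogen and 12.9, 12, 8.63 and 11.7 CPM in Anagen (-2.09 ± 0.53, adjusted p = 0.00743 by edgeR), and its adjusted p was 0.0649 without Anagen 1 and Anagen 2 together. Both pairs of groups were without overlap. Il13ra1 was the more abundant of the partners per gene length in both phases, at 106 against 0.504 RPKM in Telogen and 21.6 against 2.28 RPKM in Anagen. Il20rb and Il22ra1, which together bind interleukin-20 and interleukin-24, were lower in Telogen together. Il20rb had 62.1, 54.5 and 68.6 CPM in Telogen and 186, 147, 209 and 215 CPM in Anagen (-1.61 ± 0.21, adjusted p = 0.000126 by edgeR). Il22ra1 had 4.1, 6.39 and 7.53 CPM in Telogen and 15, 19.8, 21.8 and 29.3 CPM in Anagen (-1.84 ± 0.37, adjusted p = 0.00194 by edgeR). Il10rb, the partner of Il22ra1 in the interleukin-22 receptor, did not pass (-0.08 ± 0.65, SE), and Il22ra2, a secreted binding protein for interleukin-22, had 18 counts in Telogen and 1 in Anagen, a ratio of 65.5 (95% exact binomial interval 10.3 to 2728). That ratio was 38.1 without Telogen 1 and 104 without Telogen 2, and without Anagen 3 the level was at least 16.3-fold higher.

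**Figure D4:**
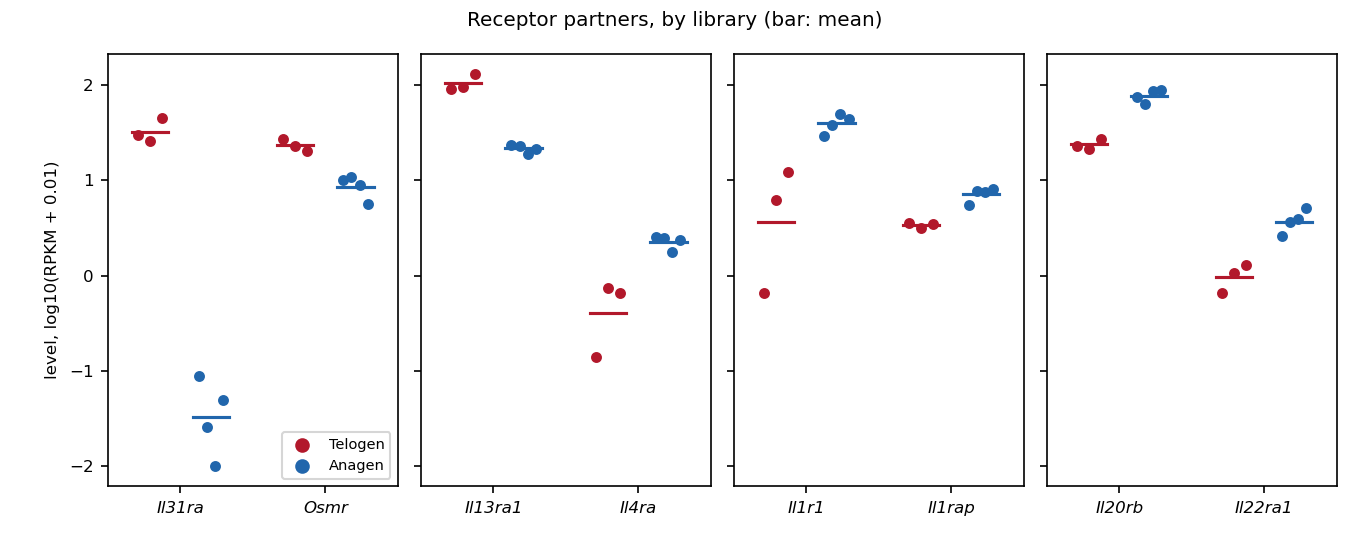
Level of 4 pairs of receptor partners in every library, as log10(RPKM + 0.01) on the vertical axis, with Telogen in red left of Anagen in blue and bars at the mean of the log values. Il31ra and Osmr are both higher in Telogen, Il13ra1 is higher and Il4ra lower, and the other 2 pairs are lower.

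Il11ra1, the interleukin-11 receptor, had 377, 347 and 214 CPM in Telogen and 128, 116, 111 and 87.1 CPM in Anagen (1.5 ± 0.23, adjusted p = 0.000365 by edgeR); its ligand Il11 had 5 counts in all. Il6ra, the ligand-binding subunit for interleukin-6, had 0, 0 and 10 counts in Telogen and 147, 97, 86 and 125 in Anagen. All its Telogen reads came from Telogen 3. The log2 fold change was -3.58 ± 1.04 (adjusted p = 0.0148 by edgeR) and -2.97 without Telogen 2; its adjusted p was 0.0687 when both Anagen 1 and Anagen 2 were left out. With Telogen 3 left out, Telogen had 0 counts and was at least 29.3-fold lower. Among receptors for interleukin-17, Il17re, which binds interleukin-17C, had 6.77, 6.71 and 7.13 CPM in Telogen and 15.6, 12.6, 15.1 and 22.3 CPM in Anagen (-1.25 ± 0.33, adjusted p = 0.00953 by edgeR). Il17re lost its call with the replicate number as a block (adjusted p = 0.0533 by edgeR). Its partner Il17ra (-0.65 ± 0.31, SE), Il17rc (-0.08 ± 0.44, SE) and Il17rb (0.90 ± 0.83, SE) did not pass. Il17rd, known as an inhibitor of fibroblast growth factor signalling, had 13.9, 8.47 and 4.76 CPM in Telogen and 0.360, 1.87, 5.54 and 1.22 CPM in Anagen. The groups overlapped, and the call (2.0 ± 0.76, adjusted p = 0.0482 by edgeR) was lost without Telogen 1, Telogen 2, Anagen 1, Anagen 2 or Anagen 4 (adjusted p = 0.0742 to 0.177 by edgeR), while the fold change was 2.95 without Anagen 3. The untested subunits were Il7r, at least 33.9-fold higher in Telogen through Telogen 3 alone (at least 53.9-fold without Telogen 2), Il2rg with 7 counts in Telogen 3 and 4 in Anagen 4, and Il1rl1, Il3ra, Il12rb1, Il12rb2, Il13ra2, Il20ra, Il22ra2 and Il23r with 2 to 24 counts in all.

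Of 8 TNF family ligands 2 were tested, 1 higher and 1 lower in Telogen, too few to set against the 23.7% and 25.8% of all genes tested. Tnfsf9, which costimulates T cells through Tnfrsf9, had 22.4, 21.4 and 6.34 CPM in Telogen and 1.37, 0.937, 1.22 and 0.429 CPM in Anagen. It was 16.7-fold higher in Telogen (4.07 ± 0.56, adjusted p = 0.000185 by edgeR), with every Telogen library above all Anagen libraries. Its receptor Tnfrsf9 had 0 counts in Telogen and 3, 19, 13 and 2 in Anagen and was too low to be tested. Tnfsf15, a ligand of Tnfrsf25, had 0 counts in Telogen and 16, 10, 67 and 20 in Anagen. It was called lower in Telogen (adjusted p = 0.0107 by edgeR), at least 10.4-fold against 3 counts over the Telogen libraries, at least 6.53-fold without Telogen 2 and at least 5.64-fold without Anagen 3. It entered the test through Anagen libraries alone and did not reach the filter without Anagen 1, Anagen 3 or Anagen 4. Tnfrsf25 had 4 counts in Telogen and 46 in Anagen and did not pass. Tnfsf8 had 60 of its 62 counts in Anagen 1, Tnfsf18 had 1, 6 and 21 counts in Telogen and 4, 0, 8 and 3 in Anagen, and Tnfsf11, Tnfsf12, Tnfsf13b and Tnfsfm13 had 5 to 15 counts in all; Tnfsfm13 overlaps Tnfsf12 on chromosome 11, so their reads may be shared.

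In the TNF receptor family 10 of 16 were tested, and 2 were higher and 3 lower in Telogen. At 20% and 30% these shares lay near the 23.7% and 25.8% of all genes tested. Tnfrsf11b, osteoprotegerin, a secreted decoy for Tnfsf11, had 91.0, 55.0 and 70.1 CPM in Telogen and 0.648, 1.54, 1.55 and 0.214 CPM in Anagen. It was 70.7-fold higher in Telogen (6.14 ± 0.52, adjusted p = 7.53e-06 by edgeR), with no overlap. Tnfrsf19, known as Troy, had 222, 544 and 341 counts in Telogen and 0, 6, 1 and 104 in Anagen. Anagen 4 stood apart from the other Anagen libraries but stayed below all Telogen libraries. The log2 fold change was 5.06 ± 1.23 (adjusted p = 0.00674 by edgeR) and 8.72 without Anagen 4. Tnfrsf12a, known as Fn14, the receptor for Tnfsf12, had 8.72, 15.2 and 9.91 CPM in Telogen and 49.3, 64.4, 61.4 and 31.5 CPM in Anagen (-2.19 ± 0.34, adjusted p = 0.000427 by edgeR).

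The death receptors Tnfrsf21 and Tnfrsf10b were lower in Telogen with little margin. Tnfrsf21 had 4.45, 1.44 and 8.52 CPM in Telogen and 9.73, 7.99, 17.1 and 22 CPM in Anagen, so the groups overlapped (-1.57 ± 0.58, adjusted p = 0.0436 by edgeR). Its call was lost without Telogen 1, Telogen 2, Anagen 1, Anagen 3 or Anagen 4 (adjusted p = 0.0509 to 0.122 by edgeR), and its fold change was -2.28 without Telogen 3. Tnfrsf10b, the mouse receptor for the ligand TRAIL, had 1, 3 and 10 counts in Telogen and 50, 59, 39 and 91 in Anagen (-2.19 ± 0.83, adjusted p = 0.0481 by edgeR). That call was lost on leaving out any library but Telogen 3 (adjusted p = 0.0541 to 0.121 by edgeR), without which the fold change was -3.54. The Tnfrsf10b call was also lost with DESeq2 size factors, with no filter, with thinned counts and with the replicate number as a block. Tnfrsf1a, the main receptor for TNF, was well detected and did not pass, with 58.6, 65.5 and 56.9 CPM in Telogen and 74.9, 69.4, 52.4 and 81.1 CPM in Anagen (-0.20 ± 0.22, SE). Tnfrsf18, a costimulatory receptor of T cells, likewise did not pass, with 32.6, 39.2 and 37.2 CPM in Telogen and 28.0, 37.5, 15.2 and 33.5 CPM in Anagen (0.35 ± 0.32, SE), nor did Tnfrsf4 and Tnfrsf22. Tnfrsf11a, which binds Tnfsf11, had 52 of its 62 counts in Anagen 3, and Tnfrsf1b, Tnfrsf13b, Tnfrsf13c and Tnfrsf23 had 3 to 13 counts in all.

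Over the 51 members that were not tested, totals over the 7 libraries ran from 2 to 66 counts with a median of 12. Reads were found in Telogen alone for 11, in Anagen alone for 24 and in both for 16, and 18 had reads in a single library. Anagen libraries were deeper, so detection in them alone does not show a difference. With no filter on low counts, edgeR called 4 of the 51 higher in Telogen (Ccr4, Il1f9, Il22ra2 and Il7r). DESeq2 called 3 of these (Ccr4, Il22ra2 and Il7r). Each had reads in only 1 or 2 Telogen libraries. With the filter, 23.7% of the 12266 genes tested were called higher in Telogen. The share among the 15415 genes without the filter is not given here, so these calls alone support nothing. At an unadjusted p under 0.05, the counts over the 50 tested members stayed at 15 and 15. Over all 12266 genes tested they were 3247 and 3612.

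Of 46 listed cytokine and receptor genes that the symbols above miss, 35 were in the table and 23 were tested; 7 were higher and 5 lower in Telogen, 52.2% in all, against 49.5% of all genes tested. Kitl, the ligand of Kit, which melanocytes carry, averaged 281 ± 62.4 CPM in Telogen and 5.09 ± 3.30 CPM in Anagen (SD, n = 3 and n = 4). Lifr, a receptor subunit for leukaemia inhibitory factor, averaged 127 ± 32.4 CPM in Telogen and 35.5 ± 4.1 CPM in Anagen, Eda, a TNF family ligand of skin appendages, 30.5 ± 3.72 and 3.26 ± 2.06 CPM, and the death receptor Fas 11.7 ± 5.69 and 0.293 ± 0.336 CPM. The log2 fold change of Fas was 5.20 ± 0.85, and 6.30 without Anagen 2. Lower in Telogen were the receptor Cntfr (log2 fold change -4.22 ± 0.48; -4.85 without Telogen 2), its ligand Clcf1 (-3.40 ± 0.76; -4.07 without Telogen 2), Csf2ra (-2.22 ± 0.57) and Lif, which had 0 counts in Telogen and 155 in Anagen and was at least 14.2-fold lower (at least 8.95-fold without Telogen 2).

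Of 37 adaptors and kinases that these receptors use, 36 were in the table and 35 were tested; 4 were higher and 9 lower in Telogen, 37.1% in all, against 49.5% of all genes tested. Irak1 (0.97 ± 0.18, SE), a kinase of the interleukin-1 receptor, Jak2 (1.31 ± 0.27), Birc3 (2.70 ± 0.58; 1.91 without Telogen 1), a ubiquitin ligase of TNF receptors, and Traf3 (0.88 ± 0.29) were higher. Traf3 lost its call without Telogen 1, Telogen 2 or Anagen 1 (adjusted p = 0.0616 to 0.0987 by edgeR). Traf7 (-1.42 ± 0.29), the death receptor adaptor Fadd (-1.88 ± 0.42) and Cflar (-1.56 ± 0.35), which blocks caspase-8 at death receptors, were lower. Elmo1, which acts downstream of chemokine receptors, had 2 counts in Telogen and 779 in Anagen, 107-fold lower in Telogen (95% exact binomial interval of the ratio 29.5 to 886). That ratio was 67.5 without Telogen 2; with Telogen 3 left out, which held both reads, the bound was at least 50.1-fold. Leaving out both Anagen 1 and Anagen 2 left 3 adaptors higher and 5 lower.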

How the data were processed

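RNA from sorted cells was sequenced in 3 Telogen and 4 Anagen samples; per the labels' protocols it was extracted with Trizol and amplified with the Ovation RNA-Seq System V2. The deposited table gave raw read counts per gene and, per the file headers, RPKM values; the submitters' processing notes name mm10. How reads were aligned and counted, and whether strand was used, is not given in the sources used here. Deposited RPKM equalled count over gene length and column total in 107905 of 107905 values (relative tolerance 1e-06). Starts are printed 1-based.

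Counts were tested with edgeR 4.0.16 (R 4.3.3; robust quasi-likelihood fit, TMM factors, expression filter with minimum count 10 and minimum total 15, which left 12266 genes), 2 groups, no covariate, Benjamini-Hochberg adjustment over all genes tested. SE is the fold change over the square root of F. DESeq2 1.42.0 was an alternative. The test was also run on simulated data, but the outcome is not given here and is not used as support for any call. Within groups, Spearman correlations were 0.934 to 0.978, and chi-square per degree of freedom 22.5 to 67.3, so no 2 libraries were taken as 1. Bounds and intervals cover counting error only.

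Members, gene lists and marker lists were chosen with earlier results of these data known. Every member past the threshold is named, as are the 8 most abundant that were tested and did not pass and up to 4 genes per direction of each other list; further members are named to account for all 101.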

Additional observations from a re-analysis of the deposited data

Results flagged for a closer look

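Among 38 named members, the 4 Anagen libraries were checked for a value far from the other 3 on the log2(CPM + 1) scale, by the gap to the nearest library over the range. Chance marks about 1 in 20 such groups. For Ccl7 the share was 0.937, with Anagen 2 the highest library, and for Tnfrsf19 it was 0.866, with Anagen 4 the highest. Anagen 2 also held the most fibroblast marker reads.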

How the results depend on the processing

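Of the 30 members past the threshold, 19 kept their direction and their call under each of 13 alternatives that gave them a value, and 11 lost the call under at least 1; none changed direction while passing. The alternatives were DESeq2 size factors, DESeq2's test, no filter, counts thinned to 5097457 per library, the replicate number as a block, each library left out in turn, and Anagen 1 and Anagen 2 left out together. Members higher in Telogen numbered 12 to 16 without single libraries and members lower 12 to 16. Thinned counts gave 14 and 13, DESeq2's test 18 and 15. Counts over all genes are not given for these settings. Adaptors lower in Telogen fell to 5 without Anagen 1 and Anagen 2, where fewer samples were tested. Il18r1, not past the threshold with all libraries, ran from -5.18 to 2.69 when single libraries were left out, past it in the negative direction without Telogen 3, which held nearly all its Telogen reads. With the replicate number as a block, 13 members were higher and 11 lower, and over all genes 2289 and 2497. The 7 members that lost their call there were Ccl7, Cxcr4, Il17rd, Il17re, Il1rap, Tnfrsf10b and Tnfsf15. The deviations of same-numbered libraries correlated at 0.022, 0.114 and -0.067, so the numbers do not show a pairing. At the Telogen totals, 1 read is worth 0.160 to 0.198 CPM, which limits what can be said of the 51 untested members.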
